A study of Mus musculus with 6 samples.

Results

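The transcription factor genes of naive pluripotency *Klf2*, *Klf4*, *Klf5*, *Esrrb*, *Nr0b1*, *Tcfcp2l1*, *Tbx3*, *Zfp42*, *Prdm14* and *Dppa3* were followed through RNA-Seq of mouse embryonic stem cells (ESCs) that differ in the histone variant H2A.Z. The 10 genes were looked up by symbol among the 21639 gene entries of the deposited expression table, and each was found as 1 entry. The study asked how the acidic patch of H2A.Z, a charged surface of the nucleosome, bears on gene expression before and during ESC differentiation. Expression was measured in 3 lines, as ESCs (D0) and at D3 of differentiation, with 1 library for each of the 6 conditions. No difference below therefore has a replicate check, and the error given is the counting error of the reads alone.

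All cells were male ESCs of the V6.5 (129SvJae and C57BL/6) background, and the transgenic lines were made in KH2 ESCs. In H2AZ WT and H2AZ-AP3 cells a lentiviral transgene, driven by a CMV promoter under an rtTA drug-inducible system, gave H2A.Z fused to YFP at its C terminus. In H2AZ-AP3 the 3 divergent acidic patch residues were exchanged for those of H2A. Both lines were induced with doxycycline and sorted for YFP, and they carried short hairpins against the 3′ UTR of the endogenous H2A.Z transcript, selected with blasticidin on resistant feeder cells. H2AZ KD denotes, by the labels, cells with the hairpins that deplete endogenous H2A.Z. By the study's methods, the hairpins were introduced into the transgenic lines. Which hairpin each library carried, and from which of these lines the H2AZ KD cells came, is not given in the sources used here. ESCs were kept with serum and LIF, the cytokine that maintains self-renewal, and were passaged without feeders before collection. By the study's methods, D3 cells were embryoid bodies (EBs) aggregated on non-adherent plates without LIF, although the labels call every sample ES cells.

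As background, the naive state is that of the preimplantation epiblast, and in culture it is held by a network of transcription factors that LIF, Wnt and a low level of FGF signalling keep active. LIF acts through JAK kinases and STAT3 and reaches *Klf4* most directly, whereas Wnt signalling relieves *Esrrb* and *Tcfcp2l1* from the repressor encoded by *Tcf7l1*. The factors support one another's expression, and most of them are shut down as cells pass to the formative and primed states of the postimplantation epiblast. *Pou5f1* and *Sox2* belong to the general pluripotency core, which is kept for longer.

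Estimated depth lay between 16.9 and 29.2 M reads, deepest in H2AZ-AP3 at D0, and 16822 to 17170 entries were above 0. *Pou5f1* (358 to 540 RPKM), *Sox2* (110 to 196 RPKM) and *Sall4* (42.8 to 52.8 RPKM), the ESC markers found in the table out of 4 looked for, were high in all 6 libraries. RPKM scales the reads of a gene by its transcript length and the library's size, so levels can be compared between genes. *H2afz*, the gene of H2A.Z, was not lower in the library labelled H2AZ KD at D0 (343 RPKM) than in H2AZ WT (279) or H2AZ-AP3 (304). At D3 the *H2afz* values were 236, 258 and 394 RPKM in the same order. Reads from the transgene and from the endogenous gene are not separated in this entry. The labelled depletion is thus not seen in *H2afz* at D0. By qRT-PCR and western blot, the study reported that the hairpins depleted the endogenous gene product in the transgenic lines. Because transgene and endogenous reads are not separated, the entry used here cannot by itself test that depletion. The line is called below by its label. *H2afv*, the second H2A.Z gene, lay between 52.2 and 63.3 RPKM.

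The 3 Krüppel-like factors, zinc finger proteins that bind GC-rich and CACCC sequences and can in part replace one another in ESCs, differed from each other in both contrasts. *Klf4* had the largest difference between days of the 10 genes in H2AZ WT and in the cells labelled H2AZ KD. Its level at D0 was 121 RPKM in H2AZ WT, 131 in the library labelled H2AZ KD and 65.9 in H2AZ-AP3, and at D3 it was 17.4, 17.1 and 14.9 RPKM. All EB libraries therefore sat well below all ESC libraries, with H2AZ-AP3 lowest on each day. The D3 level was 6.94-fold lower than the D0 level in H2AZ WT (log2 change -2.79, 95% counting interval -2.89 to -2.70), 7.68-fold lower in the cells labelled H2AZ KD and 4.44-fold lower in H2AZ-AP3. At D0 *Klf4* was 1.84-fold lower in H2AZ-AP3 than in H2AZ WT, and at D3 the log2 difference was -0.23.

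*Klf2*, whose protein is a target of the kinase ERK and which belongs to the naive ground state, was lowest in H2AZ-AP3 on both days. It was at 123 RPKM in H2AZ WT, 98.6 in the library labelled H2AZ KD and 41.1 in H2AZ-AP3 at D0, and the EB libraries had 63.0, 48.3 and 33.3 RPKM. The order of the lines was the same on both days, and the H2AZ-AP3 ESC library lay below the EB libraries of both other lines. The step from D0 to D3 was 1.96-fold down in H2AZ WT, 2.04-fold in the cells labelled H2AZ KD and 1.23-fold in H2AZ-AP3 (log2 change -0.30, 95% counting interval -0.41 to -0.20). Set against the library labelled H2AZ KD, H2AZ-AP3 was 2.40-fold lower at D0 and 1.45-fold lower, short of 1.5-fold, at D3.

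*Klf5*, a factor that acts from the early blastocyst on, showed no such separation of H2AZ-AP3 at D0. Its D0 levels were 41.8, 49.4 and 49.1 RPKM in H2AZ WT, the library labelled H2AZ KD and H2AZ-AP3, and its D3 levels were 29.8, 28.1 and 23.9 RPKM. The days did not overlap. The log2 change from D0 to D3 was -0.49 in H2AZ WT, -0.81 in the cells labelled H2AZ KD and -1.04 in H2AZ-AP3, so the 3 Krüppel-like factors did not share an order of the lines in the size of their decline.

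**Figure D1:**
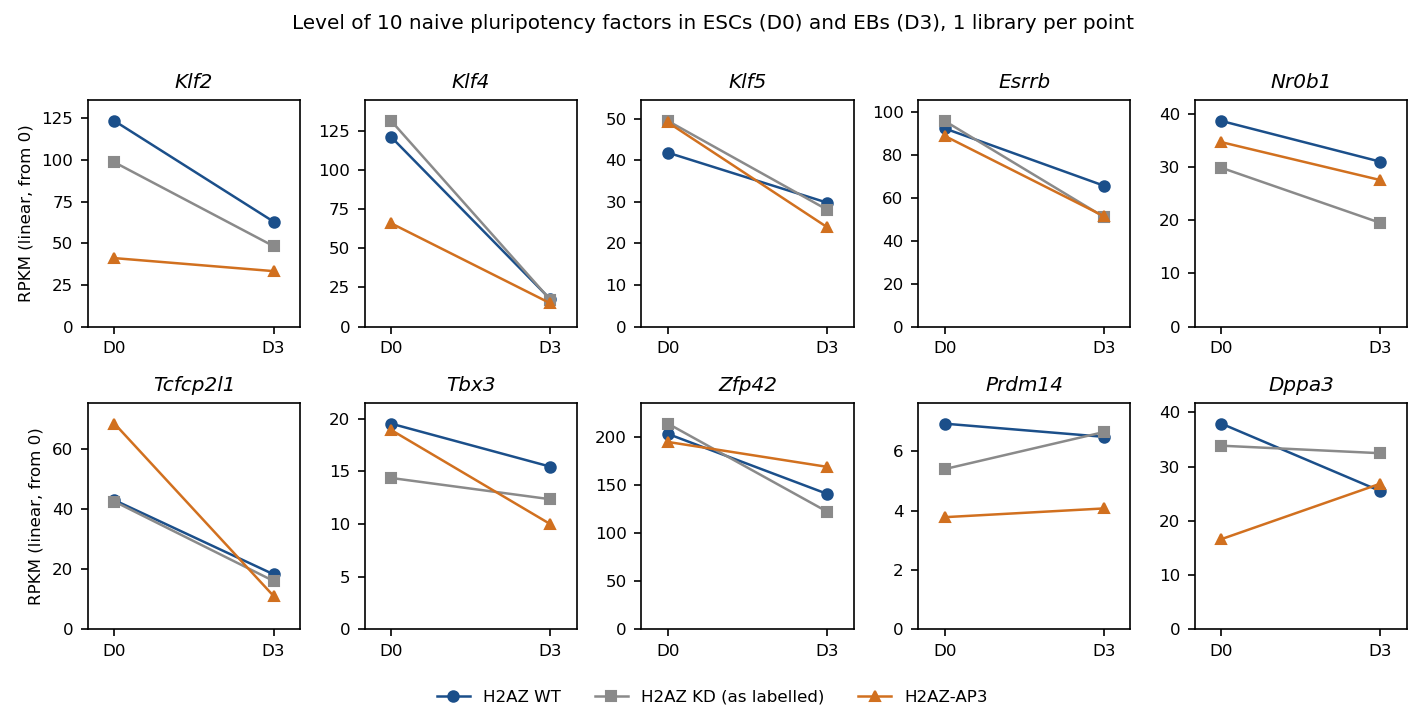
RPKM (y axis, linear and starting at 0) of each of the 10 genes at D0 and D3, with 1 point per library and a line joining the libraries of one cell line (blue circles H2AZ WT, grey squares the cells labelled H2AZ KD, orange triangles H2AZ-AP3). *Klf4* drops in all lines to between 14.9 and 17.4 RPKM, *Klf2* starts at 41.1 RPKM in H2AZ-AP3 against 123 in H2AZ WT, and *Dppa3* is the one gene that is higher past 1.5-fold at D3 in a line, H2AZ-AP3.

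*Esrrb*, an orphan nuclear receptor that is a central target of the Wnt and *Tcf7l1* axis, was one of the higher expressed genes of the set. It had 92.2, 95.6 and 88.7 RPKM at D0 in H2AZ WT, the library labelled H2AZ KD and H2AZ-AP3, and 65.5, 51.0 and 51.4 RPKM at D3. The ESC libraries were within 1.08-fold of each other, and all were above the EB libraries. The D3 level was 1.41-fold lower in H2AZ WT, 1.87-fold in the cells labelled H2AZ KD and 1.73-fold in H2AZ-AP3. At D3, H2AZ-AP3 and the library labelled H2AZ KD could not be told apart by counting error (log2 difference 0.01, 95% counting interval -0.05 to 0.07).

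*Nr0b1*, which encodes the corepressor DAX1 and binds nuclear receptors, was lowest in the cells labelled H2AZ KD. Its D0 levels were 38.7, 29.9 and 34.7 RPKM and its D3 levels 31.0, 19.5 and 27.6 RPKM in H2AZ WT, the library labelled H2AZ KD and H2AZ-AP3. In the cells labelled H2AZ KD, which were lowest on both days, *Nr0b1* was 1.53-fold lower at D3 than at D0. Their ESC library lay below the H2AZ WT EB library, so the days overlapped. Against H2AZ WT at D3 they were 1.59-fold lower, the one difference past 1.5-fold among the 10 genes between these lines.

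*Tcfcp2l1*, a Grainyhead-like factor that LIF and Wnt signalling both support, had a different order of the lines on each day, past 1.5-fold both times. At D0 it stood at 42.8 RPKM in H2AZ WT, 42.4 in the library labelled H2AZ KD and 68.3 in H2AZ-AP3. At D3 the levels were 18.2, 16.0 and 11.0 RPKM. H2AZ-AP3 was thus the highest of the ESC libraries and the lowest of the EB libraries. *Tcfcp2l1* was 1.59-fold higher in H2AZ-AP3 than in H2AZ WT at D0 and 1.65-fold lower at D3. From D0 to D3 it was 2.35-fold lower in H2AZ WT, 2.65-fold in the cells labelled H2AZ KD and 6.18-fold in H2AZ-AP3 (log2 change -2.63, 95% counting interval -2.69 to -2.56).

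*Tbx3*, a T-box factor downstream of PI3K signalling that also has a role in primitive endoderm, had D0 levels of 19.5, 14.4 and 18.9 RPKM and D3 levels of 15.4, 12.3 and 9.98 RPKM in H2AZ WT, the library labelled H2AZ KD and H2AZ-AP3. The H2AZ-AP3 library was close to H2AZ WT at D0 and was the lowest of all at D3. The change between days passed 1.5-fold only in H2AZ-AP3, at 1.90-fold. Against H2AZ WT at D3, *Tbx3* was 1.55-fold lower in H2AZ-AP3.

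*Zfp42*, which encodes the ESC marker REX1, had the highest level of the set in each library. The ESC libraries had 203, 214 and 195 RPKM and the EB libraries 141, 122 and 169 RPKM in H2AZ WT, the library labelled H2AZ KD and H2AZ-AP3. All EB libraries were below all ESC libraries. The order of the lines also turned, with H2AZ-AP3 lowest at D0 and highest at D3, without a difference past 1.5-fold between lines. *Zfp42* passed 1.5-fold only in the cells labelled H2AZ KD (1.75-fold lower at D3), whereas in H2AZ-AP3 the D3 level was 1.15-fold lower.

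*Prdm14* and *Dppa3* act in ESCs and again in the germ line, where *Prdm14* restrains FGF signalling and DNA methylation and *Dppa3* (Stella) protects methylation in the early embryo. *Prdm14* was the least expressed gene of the set. It had 6.93, 5.40 and 3.78 RPKM at D0 and 6.48, 6.64 and 4.07 RPKM at D3 in H2AZ WT, the library labelled H2AZ KD and H2AZ-AP3, from an estimated 207 to 418 reads. The H2AZ-AP3 libraries were the lowest on both days, below all libraries of the other lines. *Prdm14* was 1.83-fold lower in H2AZ-AP3 than in H2AZ WT at D0 and 1.59-fold lower at D3, while no line passed 1.5-fold between the days. The counting interval of its change from D0 to D3 included 0 in H2AZ WT (-0.32 to 0.13) and in H2AZ-AP3 (-0.16 to 0.37).

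*Dppa3* moved differently from the other genes. Its level was 37.9 RPKM in H2AZ WT, 33.8 in the library labelled H2AZ KD and 16.6 in H2AZ-AP3 at D0, and 25.5, 32.5 and 26.8 RPKM at D3. The H2AZ-AP3 ESC library was the lowest of all 6, and the EB libraries lay within the range of the ESC libraries. *Dppa3* was 2.28-fold lower in H2AZ-AP3 than in H2AZ WT at D0, and at D3 the log2 difference was 0.08 (95% counting interval -0.12 to 0.27). Between D0 and D3 it was 1.49-fold lower in H2AZ WT and 1.62-fold higher in H2AZ-AP3.

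In mm9 coordinates, *Klf2* lies at chr8:74842961-74845553 (plus strand, 3 exons), *Klf4* at chr4:55540009-55545347 (minus strand, 5 exons), *Klf5* at chr14:99697910-99712628 (plus strand, 4 exons) and *Esrrb* at chr12:87702067-87862577 (plus strand, 7 exons). *Nr0b1* lies at chrX:83437114-83441283 (plus strand, 2 exons), *Tcfcp2l1* at chr1:120524522-120581745 (plus strand, 15 exons) and *Tbx3* at chr5:120120678-120134610 (plus strand, 7 exons). *Zfp42* lies at chr8:44380421-44392363 (minus strand, 4 exons), *Prdm14* at chr1:13103509-13117244 (minus strand, 8 exons) and *Dppa3* at chr6:122576442-122580289 (plus strand, 4 exons). The longest coding transcripts of *Dppa3* and *Klf4* have close copies elsewhere. A copy on chrX matched 820 aligned bases of the *Dppa3* transcript at 97.7% identity, and the 3′ end of the *Klf4* transcript had 3 copies of at least 95% identity, the longest over 747 bases on chr15. Reads were allowed up to 20 locations, so the levels of these 2 genes are uncertain to the extent that reads were shared with the copies. *Tbx3* overlaps the annotated gene *Gm2301* and *Tcfcp2l1* holds annotated small RNA genes, and whether counting used strand is not given in the sources used here.

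Promoters were searched for each of the 10 genes that had a RefSeq promoter, whatever its change. All genes searched were lower past 1.5-fold at D3 in at least 1 line, so none without such a decline can be set beside them. RefSeq promoters (GRCm38.p6, a later build than that of the expression table, 250 bases before the start searched on both strands) were used for 6 of the 10 genes (all but *Klf5*, *Tbx3*, *Prdm14* and *Dppa3*), as 7 promoters, with *Tcfcp2l1* under its current symbol. Each run is 28 bases, 5′ to 3′ on the strand of the gene, with the motif in capitals.
*Zfp42* octamer, chr8:43307178-43307205 (minus): ctgaagaggcATTTGCATaactgagcaa
*Zfp42* CACCC box, chr8:43307067-43307094 (minus): acatccccgcCCACACCCaccttgagcg
*Klf2* GC box, chr8:72318838-72318865 (plus): ggacggtcggGGGCGGGGcccggccgcg
*Klf2* GC box, chr8:72318857-72318884 (plus): ccggccgcggGGGCGGGGcttgaggagc
*Klf4* GC box, chr4:55532559-55532586 (minus): gaaaggcaggGGGCGGGGcctggcggcg
*Tcfcp2l1* TATA box, chr1:118627906-118627933 (plus): acctgacggccTATAAAaggcgccggcc
*Nr0b1* TATA box, chrX:86191732-86191759 (plus): tgcgcattcagTATAAAtaagtcccaag
The octamer ATTTGCAT, the letters read by POU factors such as the product of *Pou5f1*, stood at positions -186 to -179 from the *Zfp42* start and is held by 1.60% of all 32851 mouse promoters of this length. *Klf2* and *Klf4*, 2 of the 3 genes lower past 1.5-fold at D3 in H2AZ WT, held 2 and 4 GC boxes (GGGCGGGG, 1 of the 4 shown), which 16.1% of promoters hold, and the *Tcfcp2l1* promoter, the third, held a TATA box (TATAAA, 12.4% of promoters), as did that of *Nr0b1*. The *Esrrb* promoters held none of the motifs searched. The CACCC box CCACACCC (3.20%) in the *Zfp42* promoter overlapped a GC box on the other strand. The STAT site TTCCNGGAA (0.913% of promoters) and the estrogen-related receptor site TCAAGGTCA (0.387%) had no match in these 7 windows. A match describes letters in the window, and no binding was measured here.

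The first comparison asks how the naive factors stood after 3 days without LIF. In H2AZ WT all 10 genes had a log2 change below 0 from D0 to D3, and 3 of them, *Klf2*, *Klf4* and *Tcfcp2l1*, were lower past 1.5-fold, while none was higher. Scaled to the upper quartile of each library, 5 were lower, with *Dppa3* and *Zfp42* added. Among all entries 16.5% were lower past 1.5-fold and 14.1% higher, and among the 12240 entries that reached 1 RPKM in either library 10.6% were lower and 12.4% higher. The members' median log2 change was -0.51, beside 0.04 over those entries. *Klf4* had 0.931% of the entries below it and *Tcfcp2l1* had 3.94% below it. *Prdm14* stood at the other end, with 36.7% of the entries below it.

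In the cells labelled H2AZ KD, 7 genes were lower past 1.5-fold at D3 and none was higher, where 16.2% of all entries were lower and 14.0% higher (9.86% and 12.4% of those with at least 1 RPKM). Those not past it were *Tbx3*, *Dppa3* and *Prdm14*, and *Prdm14* had a log2 change of 0.30. The members' median was -0.81, beside 0.04. In H2AZ-AP3, 5 genes were lower (*Klf4*, *Klf5*, *Esrrb*, *Tbx3* and *Tcfcp2l1*) and *Dppa3* was higher, where 16.3% of all entries were lower and 14.7% higher (13.1% and 11.2% of those with at least 1 RPKM). The median here was -0.56, beside 0.04. *Klf4* and *Tcfcp2l1* were past 1.5-fold in each of the 3 lines, whereas *Klf2* was past it in 2 and *Prdm14* in none. In these bulk libraries, fewer cells that express a gene and less of its RNA per cell cannot be told apart.

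**Figure D2:**
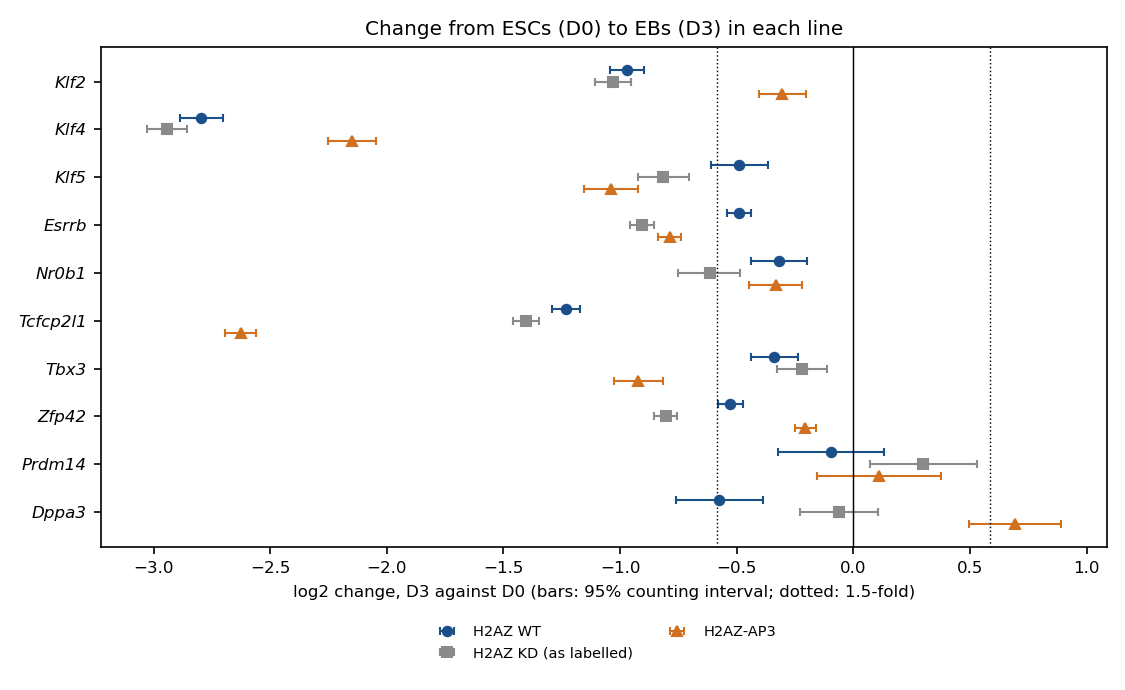
Log2 change of RPKM from D0 to D3 (x axis, 0.001 RPKM added to each value) for each gene in each line, with 95% counting intervals as bars and 1.5-fold as dotted lines. *Klf4* and *Tcfcp2l1* lie left of the dotted line in all lines, *Tcfcp2l1* farthest in H2AZ-AP3 (-2.63), and *Dppa3* lies at -0.57 in H2AZ WT and 0.69 in H2AZ-AP3.

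The inputs of the network were read from lists of pathway genes, whose counts stand beside the shares of all entries given above. Of 8 genes of the LIF and STAT3 pathway, 4 were lower past 1.5-fold at D3 in H2AZ WT, 5 in the cells labelled H2AZ KD and 6 in H2AZ-AP3, and none was higher (median log2 change -0.56, -0.84 and -1.11). *Socs3*, the feedback inhibitor that STAT3 induces, went from 54.6 to 7.42 RPKM in H2AZ WT, from 80.3 to 5.95 in the cells labelled H2AZ KD and from 47.1 to 5.65 in H2AZ-AP3. *Junb*, an AP-1 subunit, went from 67.0 to 8.06 RPKM in H2AZ WT, and *Stat3* and the receptor gene *Lifr* were 1.60-fold and 1.54-fold lower there. Of 10 genes of FGF, Wnt and related inputs, 2 were higher at D3 in H2AZ WT, the kinase gene *Mapk3* (1.83-fold) and *Flcn* (1.68-fold), a gene needed for exit from the naive state. In the cells labelled H2AZ KD 1 of the 10 was higher, *Mapk3* (1.64-fold), and in H2AZ-AP3 2 were, *Tcf7l1* (log2 change 1.29) and *Fgfr2* (1.14). *Mapk3* was just short of 1.5-fold in H2AZ-AP3 (log2 change 0.584). These counts are near the shares of all entries that were higher, 14.1%, 14.0% and 14.7%. *Tcf7l1* was lower in H2AZ-AP3 than in H2AZ WT at D0 (log2 difference -0.59), and *Fgfr2*, an FGF receptor gene, was 1.77-fold lower.

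Other genes of the naive state, 12 in all, gave 3 lower and none higher at D3 in H2AZ WT, with a median log2 change of -0.44. In the cells labelled H2AZ KD 5 were lower and none higher, and in H2AZ-AP3 4 were lower and 1 higher. The higher one was *Spic*, at 0.0276 RPKM at D0 and 0.271 at D3 in H2AZ-AP3. Of the 11 with at least 1 RPKM in either library, 4 were lower and none higher in each of these lines. The 3 in H2AZ WT were *Tet2*, a methylcytosine dioxygenase gene (17.7 to 8.17 RPKM), the homeobox gene *Gbx2* (9.41 to 4.36 RPKM) and *Spic*, an ETS factor gene at a low level (1.46 to 0.451 RPKM). Of the 7 core pluripotency genes found, none was past 1.5-fold in H2AZ WT (median log2 change 0.00), with *Pou5f1* at 421 RPKM at D0 and 448 at D3. In the cells labelled H2AZ KD 1 was lower, *Dppa2* (log2 change -0.81), and in H2AZ-AP3 none was past 1.5-fold. *Lin28a*, an RNA-binding protein gene, was just short of the threshold in H2AZ WT, with 90.8 RPKM at D0 and 136 at D3. Formative and primed epiblast genes were higher in 8 of 12 cases at D3 in H2AZ WT, 8 in the cells labelled H2AZ KD and 11 in H2AZ-AP3, and none was lower. *Fgf5*, the standard primed marker, went from 0.539 to 7.34 RPKM in H2AZ WT, *Otx2* from 4.22 to 22.3 RPKM and *Sall2* from 1.58 to 8.81 RPKM.

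Some markers of endoderm, fibroblasts, neural cells and germ cells differed between the days. Of the 8 endoderm markers 7 were higher past 1.5-fold at D3 in H2AZ WT, 8 in the cells labelled H2AZ KD and 4 in H2AZ-AP3. None was lower, and of all entries 14.1%, 14.0% and 14.7% were higher in the same order. The 8 primitive and visceral endoderm markers summed to 22.0, 27.3 and 60.3 RPKM at D0 and to 84.5, 202 and 114 RPKM at D3 in H2AZ WT, the cells labelled H2AZ KD and H2AZ-AP3. Most of the increase in each line was *Dab2*, at 9.25 RPKM at D0 and 41.8 at D3 in H2AZ WT. *Dab2* went from 10.2 to 129 RPKM in the cells labelled H2AZ KD and from 22.4 to 70.3 in H2AZ-AP3. *Gata4* had 12.1 and 13.3 RPKM in H2AZ-AP3. *Afp* was at 0 in H2AZ WT and H2AZ-AP3 at D0. The 8 fibroblast markers were looked at because feeder cells were used earlier in culture. They summed to 27.7, 24.2 and 47.0 RPKM at D0 and to 13.1, 7.60 and 10.1 RPKM at D3. In H2AZ WT 5 of them were lower past 1.5-fold at D3 and 1 was higher, beside 16.5% and 14.1% of all entries. The higher one was *Thy1*, which is not restricted to fibroblasts and went from 1.74 to 9.19 RPKM in H2AZ WT, from 2.42 to 5.48 in the cells labelled H2AZ KD and from 1.74 to 3.56 in H2AZ-AP3. *Lum* was at 0 in H2AZ WT on both days and in the cells labelled H2AZ KD at D3, and *Postn* at 0 in H2AZ-AP3 at D0 and in all EB libraries. For H2AZ WT, the cells labelled H2AZ KD and H2AZ-AP3, the 6 neural markers summed to 17.2, 19.4 and 13.5 RPKM at D0. At D3 they summed to 24.0, 16.9 and 29.2 RPKM, lower than at D0 only in the cells labelled H2AZ KD. The 6 germ cell markers summed to 36.9, 41.5 and 35.2 RPKM at D0 and to 68.2, 58.3 and 36.6 at D3. The 6 primitive streak and mesoderm markers summed to between 2.85 and 3.55 RPKM. The 4 trophectoderm markers found summed to between 2.31 and 5.31, with *Elf5* at 0 everywhere. *Mesp1*, *Neurog2* and *Cdx2* of these lists were at 0 in some libraries. The part of these cells in the differences of the naive factors was not tested.

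The second comparison sets the acidic patch mutant beside H2AZ WT on each day, and it shares the H2AZ WT and H2AZ-AP3 libraries with the comparison between days. At D0, 4 of the 10 genes were lower past 1.5-fold in H2AZ-AP3 (*Klf2*, *Klf4*, *Dppa3* and *Prdm14*) and *Tcfcp2l1* was higher. Among all entries 13.9% were lower and 11.1% higher, and among the 12162 entries that reached 1 RPKM in either library 6.07% were lower and 7.79% higher. The members' median log2 difference was -0.11, beside 0.00 over those entries. *Klf2* had 0.707% of the entries below it, *Dppa3* 1.27% and *Klf4* 2.44%, whereas *Esrrb*, *Tbx3* and *Zfp42* lay near the middle, with 42.4%, 43.6% and 41.9% below them. The set therefore split, with log2 differences from -1.59 to 0.67.

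At D3, 4 genes were lower in H2AZ-AP3 past 1.5-fold and none was higher, where 11.7% of all entries were lower and 10.4% higher (5.98% and 4.20% of those with at least 1 RPKM). They were *Klf2*, *Prdm14*, *Tbx3* and *Tcfcp2l1*, so *Klf2* and *Prdm14* were lower past 1.5-fold on both days, and *Tcfcp2l1* passed it upward at D0 and downward at D3. With a pseudocount of 1 RPKM, *Prdm14* and *Tbx3* fell short of 1.5-fold at D3 (log2 differences -0.56 and -0.58). The median was -0.33, beside -0.01. *Klf4* and *Dppa3*, lower at D0, had log2 differences of -0.23 and 0.08 at D3.

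**Figure D3:**
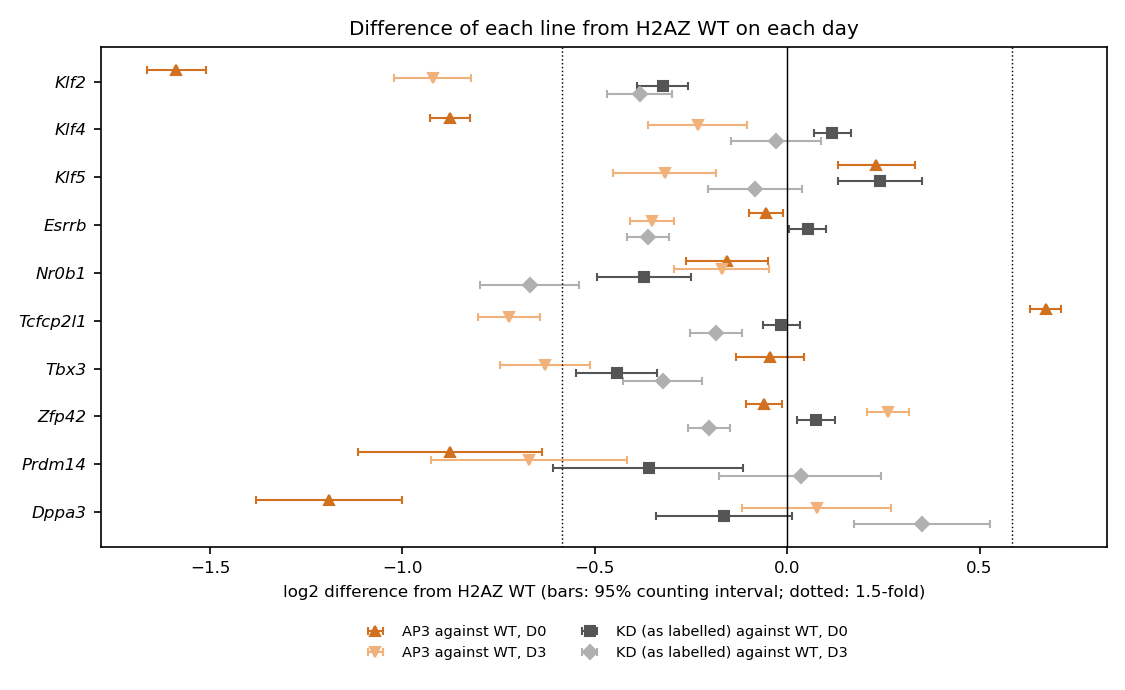
Log2 difference of RPKM from H2AZ WT (x axis, 0.001 RPKM added to each value) for H2AZ-AP3 (orange) and the cells labelled H2AZ KD (grey) at D0 and D3, with 95% counting intervals as bars and 1.5-fold as dotted lines. *Klf2* lies at -1.59 and -0.92 in H2AZ-AP3, *Tcfcp2l1* at 0.67 and -0.72, and the cells labelled H2AZ KD pass the dotted line only for *Nr0b1* at D3 (-0.67).

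The lists of genes around the network are given for the same lines at D0, beside the 13.9% of all entries that were lower and the 11.1% that were higher. Of the 12 formative and primed genes 5 were lower in H2AZ-AP3 ESCs and none higher (median log2 difference -0.38), among them *Zic2* (1.57 against 9.76 RPKM), *Otx2* (1.37 against 4.22 RPKM) and *Zic5* (1.57 against 3.95 RPKM). At D3 none of these 12 was lower and 2 were higher (median log2 difference 0.35), beside 11.7% and 10.4% of all entries. Of the 12 other naive genes 3 were lower at D0 and none higher, namely *Spic* (0.0276 against 1.46 RPKM), *Sox15* (5.62 against 9.63 RPKM) and the alkaline phosphatase gene *Alpl* (30.1 against 49.7 RPKM). Of the 7 core genes, all with at least 1 RPKM, 1 was lower at D0, a share near that of all entries. Among entries with at least 1 RPKM 6.07% were lower. The gene was *Sox2* (110 against 191 RPKM), while *Pou5f1* was at 540 against 421 RPKM. Of the 8 endoderm markers 7 were higher in H2AZ-AP3 ESCs, led by *Gata4* (12.1 against 3.24 RPKM) and *Sox7* (1.68 against 0.486 RPKM), and of the 8 fibroblast markers 5 were higher and 1 lower. The summed levels are those given above for D0, and their part in the lower *Klf2*, *Klf4*, *Dppa3* and *Prdm14* was not tested.

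**Figure D4:**
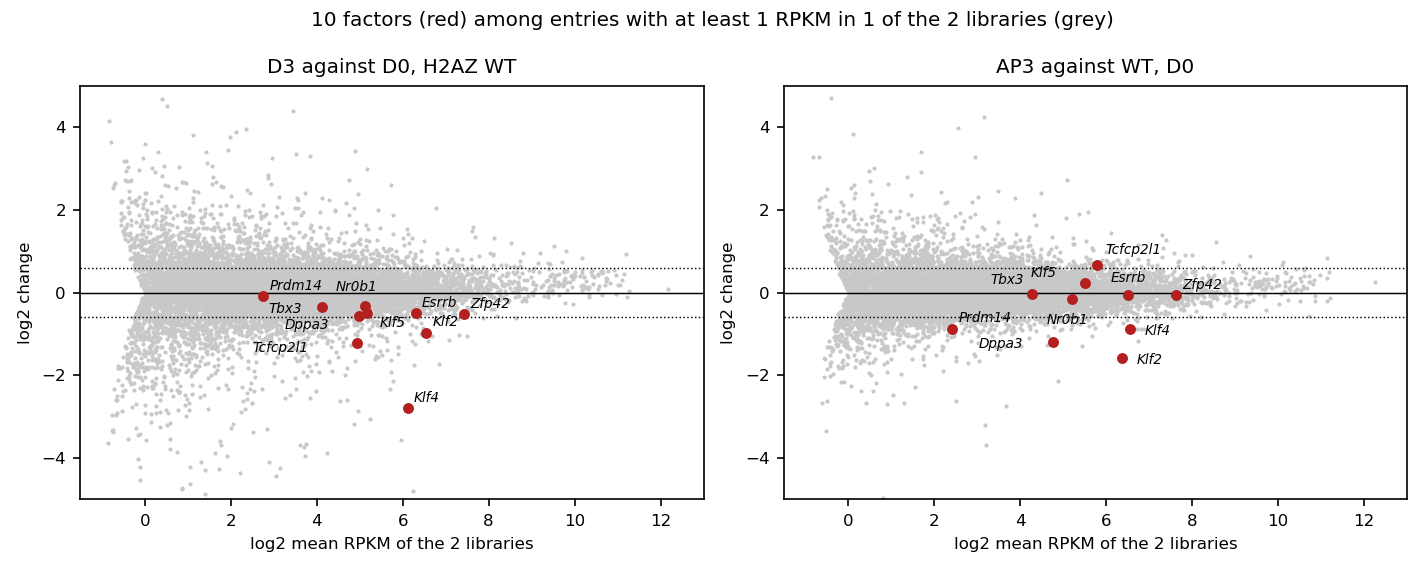
Log2 change (y axis) against log2 mean RPKM of the 2 libraries (x axis) for entries with 1 RPKM or more in either (grey) and the 10 factors (red), for D3 against D0 in H2AZ WT (left) and H2AZ-AP3 against H2AZ WT at D0 (right), with 1.5-fold as dotted lines. On the left *Klf4* lies at -2.79, and on the right *Klf2* lies at -1.59. Of the 12240 and 12162 entries, 70 and 52 lie beyond the axis.

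The third comparison sets the cells labelled H2AZ KD beside H2AZ WT and H2AZ-AP3. Against H2AZ WT at D0 none of the 10 genes passed 1.5-fold in either direction, where 10.7% of all entries were lower and 8.96% higher (4.65% and 3.37% of those with at least 1 RPKM). The log2 differences lay between -0.44 (*Tbx3*) and 0.24 (*Klf5*), with a median of -0.09 beside -0.03 over the latter. At D3 *Nr0b1* alone was lower and none was higher, where 11.3% of all entries were lower and 9.41% higher (4.88% and 3.71% of those with at least 1 RPKM), and the median was -0.19 beside -0.03. H2AZ-AP3 against the library labelled H2AZ KD gave 3 lower genes at D0, *Klf2*, *Klf4* (1.99-fold) and *Dppa3* (2.04-fold), and 1 higher gene, *Tcfcp2l1* (1.61-fold), where 13.5% of all entries were lower and 13.5% higher (6.74% and 11.7% of those with at least 1 RPKM), with a median of -0.12 beside 0.04. At D3 *Prdm14* alone was lower (1.63-fold), and none was higher, where 11.1% of all entries were lower and 11.6% higher (5.78% and 5.50% of those with at least 1 RPKM), with a median of -0.25 beside 0.02.

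Among themselves the 10 genes formed a group of genes with like profiles and some that stood apart. Over the 6 libraries, 5 of the 45 pairs had a Pearson r of log2 RPKM above 0.9, the highest between *Klf5* and *Tcfcp2l1* (0.973), then *Esrrb* with *Klf5* (0.953) and with *Klf4* (0.947). *Dppa3* and *Prdm14* had the lowest mean r with the other members (0.0932 and 0.0924), and 11 pairs were below 0, down to -0.360 for *Prdm14* and *Zfp42*. Between *Dppa3* and *Prdm14* r was 0.742, and with *Klf2* it was 0.663 and 0.662. These values describe 6 libraries that share days and lines, and they carry no p. The entries most like the members' mean log2 level over the 6 libraries, among 8246 with a mean of at least 5 RPKM, were *Myst4* (r = 0.994), *Klf9* (0.992), *Plcb3* (0.991), *Ep300* (0.991) and *Zfp180* (0.989), followed by *Cox7a1*, *Fzd5*, *Notch1* and *Gadd45g*. *Gadd45g* had the largest step of those named, from 12.8 RPKM at D0 to 3.15 at D3 in H2AZ WT, and *Fzd5*, a Wnt receptor gene, went from 20.6 to 8.73 RPKM.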

How the data were processed

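RNA-Seq was analysed from 6 libraries, 1 per condition. The authors selected poly(A) RNA, prepared TruSeq libraries from it and mapped the single-end reads on mm9 by TopHat and Bowtie 0.12.7 (up to 2 mismatches and 20 locations), and deposited RPKM per gene from Cufflinks 1.3.0, as the submitters' processing notes and the study's methods state. The log2 ratios between lines that the authors deposited in the same table were not used. The table holds 21639 entries with 21376 symbols.

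Log2 changes were computed from RPKM with a pseudocount of 0.001 and counted past 1.5-fold, beside the share of all entries past it, and folds are ratios on that scale. With 1 library per condition no test was run. Depth was estimated from the lowest RPKM values of 1616 genes with a single transcript over 1500 bases. It is not exact, and the 95% intervals built on it cover counting error only, with reads taken as independent molecules although none carried molecular identifiers. Gene models come from the GENCODE annotation of the mm9 assembly, and transcript copies were searched with minimap2 2.31. The calls and the depth estimate were tested on simulated data.

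The 10 genes, the pathway lists and the marker lists were chosen with earlier results of these data known. From each list the genes named are among the 4 with the largest absolute log2 change, at 1 RPKM or more in 1 library, and the genes most like the members are the 10 with the highest Pearson r over entries with a mean of at least 5 RPKM, of which 1 is not reported here. Markers at 0 and the ESC markers are named besides. Alternatives were pseudocounts of 0.1 and 1, entries with at least 1 RPKM in 1 library, median centring, upper-quartile scaling, summed entries per symbol and a 2-fold threshold. The software was Python 3.11.15 with pandas 2.3.3, numpy 2.4.6, matplotlib 3.10.9 and scipy 1.17.1.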

Additional observations from a re-analysis of the deposited data

Results flagged for a closer look

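Differences of opposite direction between 2 lines or 2 days, each beyond its counting interval and with a gap past 1.5-fold on the log2 scale (0.585), brought up 5 results, and none of them was tested, since each value rests on 1 library per condition. *Dppa3* had a log2 change from D0 to D3 of 0.69 in H2AZ-AP3 and -0.57 in H2AZ WT, a difference of 1.27. *Tcfcp2l1* in H2AZ-AP3 against H2AZ WT was at -0.72 at D3 and 0.67 at D0, a difference of -1.39, and against the library labelled H2AZ KD it was at -0.54 and 0.69, a difference of -1.22. *Tbx3* in H2AZ-AP3 against the library labelled H2AZ KD was at -0.31 at D3 and 0.40 at D0, a difference of -0.70. *Zfp42* in the same contrast was at 0.47 and -0.13, a difference of 0.60. With a smaller gap, *Klf5* (-0.32 at D3 and 0.23 at D0) and *Zfp42* (0.26 and -0.06) in H2AZ-AP3 against H2AZ WT, and *Esrrb* (-0.36 and 0.05) and *Zfp42* (-0.20 and 0.07) in the cells labelled H2AZ KD against H2AZ WT, also differed in direction, which was not tested either. The contrasts of H2AZ-AP3 share its libraries, and those against H2AZ WT share the H2AZ WT libraries. The reads of *Dppa3* may be shared with its copy on chrX.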

How the results depend on the processing

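No direction of a called gene turned under any alternative. With a pseudocount of 1, the count of genes lower in H2AZ-AP3 than in H2AZ WT at D3 was 2 (*Klf2* and *Tcfcp2l1*) in place of 4. Scaled to the upper quartile, 5 genes were lower at D3 in H2AZ WT in place of 3, with *Dppa3* and *Zfp42* added. At a 2-fold threshold, 3 genes were lower at D3 in the cells labelled H2AZ KD (*Klf2*, *Klf4* and *Tcfcp2l1*), and 3 lower and 0 higher in H2AZ-AP3 (*Klf4*, *Klf5* and *Tcfcp2l1*). H2AZ-AP3 against H2AZ WT then gave 2 lower (*Klf2* and *Dppa3*) and 0 higher at D0 and 0 lower at D3. The cells labelled H2AZ KD gave 0 lower against H2AZ WT at D3, and H2AZ-AP3 against them gave 0 higher at D0 and 0 lower at D3. A 2-fold threshold counts fewer genes by construction, and the cause of the shifts with the pseudocount and the scaling was not tested. The other counts stayed within 1.5 times. Scaling moved log2 changes by less than 0.1. No paired analysis was possible because each comparison is of 2 libraries, and the 3 lines are conditions of the study and not replicates of one another. Depth limits *Prdm14* most, whose intervals between days include 0 in H2AZ WT and H2AZ-AP3.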

Other observations

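The 14 other genes of the Krüppel-like family, zinc finger factors related to *Klf2*, *Klf4* and *Klf5*, were looked at in the same libraries. In H2AZ WT 6 of them were lower past 1.5-fold at D3 and 1 was higher (median log2 change -0.37), beside 16.5% and 14.1% of all entries, and of the 11 with at least 1 RPKM 4 were lower and none higher. *Klf6* went from 64.7 to 21.8 RPKM, *Klf3*, a repressor, from 33.0 to 18.9, and the TGF-beta-inducible *Klf11* and *Klf10* from 24.6 to 15.3 and from 46.1 to 30.4. *Klf6* and *Klf3* thus had higher D0 levels than *Tbx3* or *Prdm14*. *Klf6* was lower past 1.5-fold at D3 in the other lines too (log2 change -1.14 in the cells labelled H2AZ KD and -1.06 in H2AZ-AP3). Between H2AZ-AP3 and H2AZ WT at D0, *Klf15* was 2.42-fold higher and was the one gene of the 11 past 1.5-fold, a share near the 7.79% higher and 6.07% lower among all entries with at least 1 RPKM.

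Germ cell genes were described because *Prdm14* and *Dppa3* also act in the germ line. Of 6 of them, 2 were lower in H2AZ-AP3 ESCs than in H2AZ WT and none was higher, beside 13.9% and 11.1% of all entries. *Prdm1*, a partner of *Prdm14* in germ cell specification, was at 1.52 against 2.94 RPKM, and *Dnd1* at 2.46 against 4.13 RPKM. *Sycp3*, a meiotic gene, went from 14.4 RPKM at D0 to 46.0 at D3 in H2AZ WT and from 16.9 to 19.1 RPKM in H2AZ-AP3.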
